A study of Mus musculus with 6 samples.

Results

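The TGF-beta and BMP pathway genes described here are 10 genes, taken by symbol from the 41605 gene rows of single-cell RNA counts from mouse sciatic nerve. They are the ligands Tgfb1, Tgfb2, Tgfb3, Bmp4, Bmp7 and Gdf10, the receptors Tgfbr1 and Tgfbr2, and the targets Tgfbi and Id1. Each symbol was found once, and all 10 were measured in each of the 6 libraries. The study profiled nerve cells at postnatal day 1 (P1, 3 libraries) and postnatal day 60 (P60, 3 libraries), and the question asked here is which cells carry these ligands and receptors at each age. All mice, at both ages, were P0Cre-/+: ReYFP Tg/+: βAct-DsRed Tg/+, so cells carried DsRed and Schwann-lineage cells also eYFP, with P0 driving Cre. They were on the C57bl/6J background, and each library came from male and female mice in equal parts. Cells were sorted for DsRed, and at P1 a part of the DsRed and eYFP double-positive cells was removed, so the number of Schwann cells at P1 was set by the sort. The labels give no litter, day or batch, so that age and any batch that goes with it cannot be told apart.

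TGF-beta ligands are secreted in a latent form held by a propeptide, which is anchored to the matrix by latent TGF-beta binding proteins and freed by integrins or thrombospondin. The active dimer brings the type II receptor Tgfbr2 together with the type I receptor Tgfbr1, which phosphorylates SMAD2 and SMAD3. BMP ligands act through other type I receptors and SMAD1, SMAD5 and SMAD9, and the Id genes are among their best known targets. In peripheral nerve this family acts on Schwann cells, on the fibroblasts of the 3 connective tissue layers (the endoneurium around axons, the perineurium around fascicles and the epineurium outside them) and on vessels.

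The libraries held 20203440 to 30334608 UMIs (unique molecular identifiers, 1 per captured RNA molecule), and any 2 of them shared 14 to 33 cell barcodes. Cells were clustered within each age without these 10 genes and without 64 other pathway genes among the variable genes, and clusters were named from marker lists. P1 gave 3079 Schwann cells, 1331 endoneurial, 2032 epineurial, 727 endothelial, 601 mural (pericyte and smooth muscle) and 1049 immune cells. P60 gave 443 Schwann cells, 860 endoneurial, 2426 perineurial, 4533 epineurial, 1632 endothelial, 850 mural and 1388 immune cells. No P1 cluster met the perineurial markers here, although one of 276 to 305 cells per library did when the members and pathway genes were kept in the clustering. A P1 fibroblast cluster of 1141 cells led by Crabp2, Igfbp6 and Rspo1 has no layer name and is given by those genes. P60 replicate 3 stood apart, with a median of 3627 UMIs per cell against 4982.5 and 5561 in the other P60 libraries and 16.2% of its cells over 10% mitochondrial counts against 2.97% and 4.84%. All levels below are CPM, the UMIs of a gene per 1000000 UMIs of all cells of a class in a library, given for replicates 1, 2 and 3 in that order, with means ± SD over 3 libraries. CPM is a share of the class's RNA, so a lower share of cells and less RNA per cell of a kind cannot be told apart within a class. Levels are compared across classes for 1 gene at a time, never between genes, and as a description without a test.

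In GRCm38 coordinates of GENCODE M21, Tgfb1 is at chr7:25687002-25705077, Tgfb2 at chr1:186622792-186705989, Tgfb3 at chr12:86056745-86079041, Bmp4 at chr14:46383520-46390669, Bmp7 at chr2:172868012-172940321 and Gdf10 at chr14:33923587-33937983. The receptors Tgfbr1 and Tgfbr2 are at chr4:47353222-47414931 and chr9:116084293-116175360, and the targets Tgfbi and Id1 at chr13:56609523-56639562 and chr2:152736251-152737410. No exon of another gene overlapped them on the same strand. Opposite-strand exons overlapped Tgfb2 (Gm29491), Tgfb3 (Gm37804 and Gm48008) and Bmp4 (Gm15217).

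Promoter sequences from RefSeq (GRCm38.p6) were matched for 7 of the 10 genes. Those of Tgfb1, Tgfb2 and Gdf10 are shown, because Tgfb1 and Tgfb2 were carried by different classes and Gdf10 rose with age in epineurial cells. Each run is the 250 bases before the start site on the gene's strand. Capitals mark 3 motifs, the TATA motif TATAAA on the gene's strand, the GC box GGGCGG or its other-strand form CCGCCC, and the short SMAD-binding letters CAGAC or GTCTG.

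Tgfb1 promoter, chr7:25686752-25687001, plus strand: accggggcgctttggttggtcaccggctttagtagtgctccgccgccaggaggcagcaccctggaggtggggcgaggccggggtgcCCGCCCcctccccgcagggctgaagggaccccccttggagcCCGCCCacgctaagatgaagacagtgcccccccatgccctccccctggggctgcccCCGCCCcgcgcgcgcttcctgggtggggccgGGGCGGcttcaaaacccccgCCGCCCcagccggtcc
Tgfb2 promoter, chr1:186705990-186706239, minus strand: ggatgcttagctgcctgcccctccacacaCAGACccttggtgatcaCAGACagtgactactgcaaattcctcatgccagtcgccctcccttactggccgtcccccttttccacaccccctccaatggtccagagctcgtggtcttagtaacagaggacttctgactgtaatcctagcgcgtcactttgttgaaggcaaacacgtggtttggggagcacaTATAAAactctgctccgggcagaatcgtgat
Gdf10 promoter, chr14:33923337-33923586, plus strand: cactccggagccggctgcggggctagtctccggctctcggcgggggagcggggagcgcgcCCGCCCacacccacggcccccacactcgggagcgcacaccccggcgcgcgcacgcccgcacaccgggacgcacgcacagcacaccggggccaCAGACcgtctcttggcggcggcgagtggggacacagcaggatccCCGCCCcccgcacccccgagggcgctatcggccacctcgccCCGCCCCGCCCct

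The Tgfb1 stretch was 75.2% G and C with 5 GC boxes and no TATA motif, and the Gdf10 stretch was 78.8% G and C with 4 GC boxes, the last 2 of them overlapping, and 1 SMAD match. The Tgfb2 stretch was 53.6% G and C, with 1 TATA motif starting 31 bases before the start site, 2 SMAD matches and no GC box. Of 32851 promoter stretches of the same length, 7.6% held the TATA motif, 32.7% a GC box and 42.2% a SMAD match. A match is a description of the letters and not a bound site.

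Among the ligands, Tgfb1, the isoform best known from blood and immune cells, was highest in immune cells at both ages. Immune cells had 218, 224 and 216 CPM at P1 and 201, 172 and 152 at P60. Endothelial cells followed with 129.9, 129 and 147 CPM at P1 and 118, 108 and 68.9 at P60. At each age every immune library lay above every endothelial library, and these above every mural library, where the means were 42.4 ± 7.64 and 32.6 ± 15.3 CPM. The nerve's own fibroblasts and Schwann cells were low at P1, with means between 7.32 (epineurial) and 10.9 CPM (endoneurial), and the ranges of neighbours in that order overlapped. Tgfb1 rose with age in the low classes. Endoneurial cells had 10.2, 12.5 and 9.90 CPM at P1 and 39.1, 32.0 and 16.7 at P60. Their log2 change was 1.54 ± 0.28 (SE worked back from the test statistic, n = 3 libraries per age, adjusted p = 0.000422). Epineurial cells rose by 1.09 ± 0.30 (adjusted p = 0.0136) from 7.32 ± 0.861 to 15.7 ± 6.2 CPM. The epineurial call was lost without P1 replicate 1 (1.01, adjusted p = 0.0581). In immune cells the log2 change was -0.26 ± 0.14 (adjusted p = 0.172), in endothelial cells -0.43 ± 0.18 (adjusted p = 0.0785) and in mural cells -0.35 ± 0.32 (adjusted p = 0.439), none of which passed, although the endothelial change did without P60 replicate 1 (-0.57, adjusted p = 0.0346). P60 replicate 3 held the lowest P60 value in each of these classes, and perineurial cells at P60 had 9.68 ± 2.44 CPM.

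Tgfb2 was carried by other cells. It was highest in mural cells at P1, with 119, 107 and 118 CPM, followed by epineurial cells with 67.7, 63.9 and 65.6 and endothelial cells with 52.3, 67.8 and 61.6, whose ranges overlapped. Endoneurial, immune and Schwann cells lay below 6 CPM in every P1 library. At P60 the endothelial (83.3 ± 11.4 CPM), mural (72.5 ± 16.7) and epineurial (71.8 ± 10.2) ranges overlapped, and the perineurial libraries had 5.72, 5.11 and 3.76 CPM. Endothelial Tgfb2 rose with age by 0.49 ± 0.15 on the log2 scale (adjusted p = 0.0216) and endoneurial Tgfb2 by 1.07 ± 0.41 (adjusted p = 0.0455), the latter from 61 UMIs at P1 and 29 at P60. The epineurial change was 0.10 ± 0.13 (adjusted p = 0.569; without P60 replicate 3, 0.23 and adjusted p = 0.0115) and the mural change -0.51 ± 0.21 (adjusted p = 0.0901). The endothelial call was lost without P1 replicate 1 (log2 change 0.40, adjusted p = 0.102), P1 replicate 3 (0.50, adjusted p = 0.0667) or P60 replicate 1 (0.40, adjusted p = 0.0748), and the endoneurial call without any of these or of P1 replicate 2 and P60 replicate 2 (log2 changes of 0.71 to 1.23). The mural difference passed without P60 replicate 3, where the change was -0.81 (adjusted p = 0.000301).

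Among the named classes, Tgfb3 was highest in different cells at each age. No perineurial class was named at P1, and the P1 fibroblasts without a layer name, given below, entered no order of classes. At P1 Tgfb3 was highest in epineurial cells, with 112, 109 and 111 CPM, and mural cells had 32.5, 29.9 and 26.5. At P60 the epineurial libraries had 62.5, 56.6 and 34.4 CPM, while mural libraries had 109 and 155 in replicates 2 and 3 and a lower value in replicate 1 (mean 121 ± 29.6), and perineurial libraries 142, 121 and 90.7. Every mural library at P60 lay above every epineurial one, the reverse of P1. Epineurial Tgfb3 fell by 1.13 on the log2 scale (SE 0.20, adjusted p = 0.000876) and mural Tgfb3 rose by 2.18 ± 0.25 (adjusted p = 0.000117). The mural class at P60 was made of a smooth muscle cluster of 556 cells with 153 ± 31.1 CPM and a pericyte cluster of 294 cells with 58.6 ± 7.51, both above the P1 libraries, whose single mural cluster held both kinds. Endothelial and immune cells stayed at 3.41 to 6.36 CPM on average at either age, and no change passed there.

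**Figure D1:**
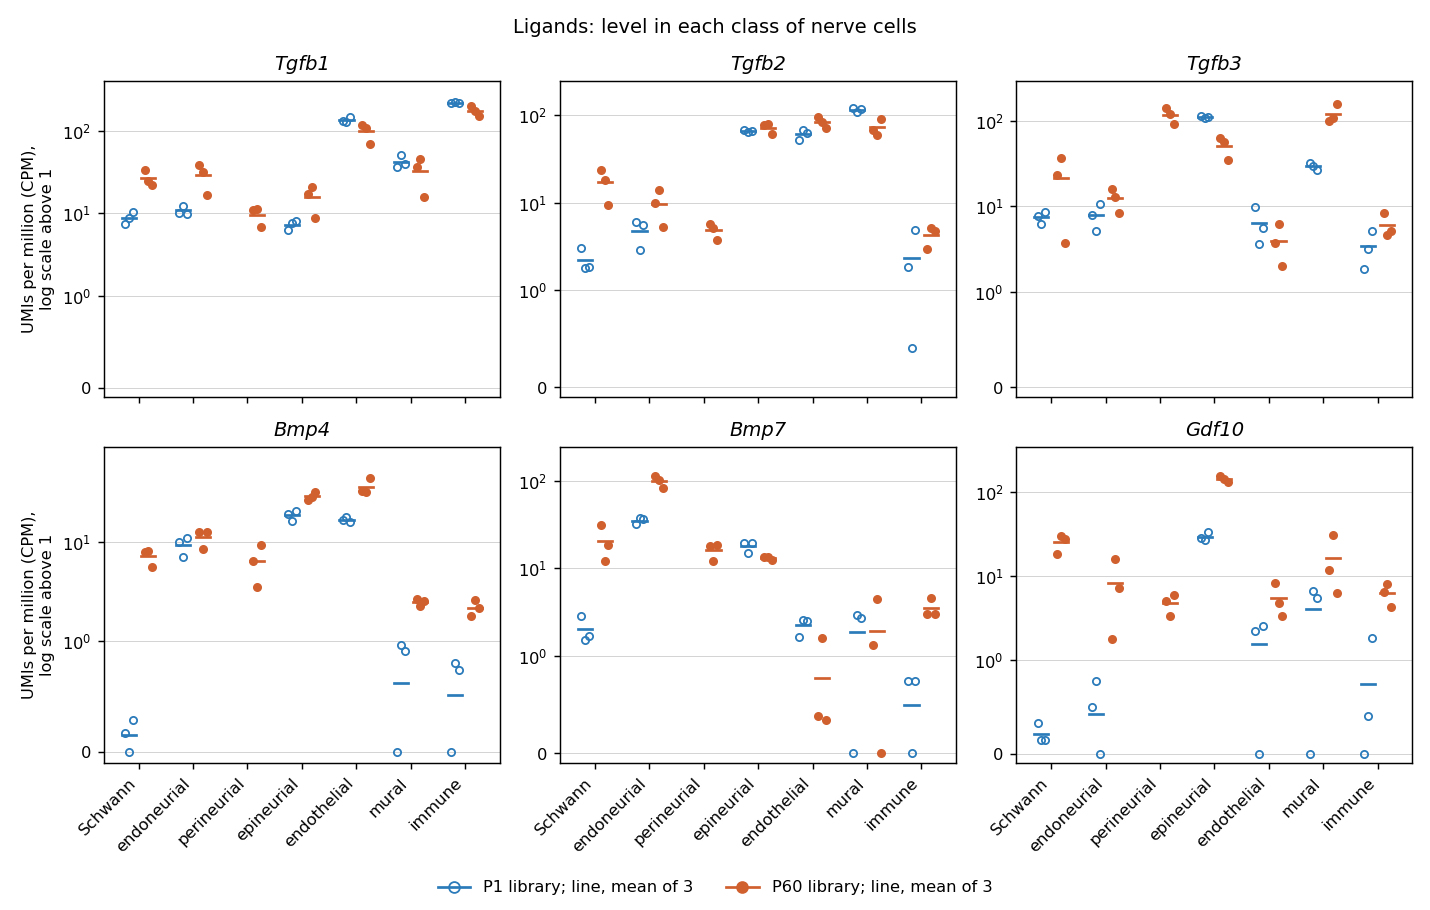
Level of the 6 ligands (CPM, log scale above 1 and linear below) in 7 classes of nerve cells, 1 point per library, open for P1 and filled for P60, with a line at the mean of 3 libraries. Tgfb1 peaked in immune cells, Tgfb2 in mural, epineurial and endothelial cells, Bmp7 in endoneurial cells and Gdf10 in epineurial cells at both ages, while Tgfb3 was highest in epineurial cells at P1 and in mural and perineurial cells at P60. No perineurial class was named at P1, and P1 fibroblasts without a layer name are not shown.

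Bmp4, a ligand of the BMP branch, was highest in epineurial and endothelial cells at both ages, with overlapping ranges. Endoneurial cells held less, 9.32 ± 2.06 CPM at P1 and 11.2 ± 2.30 at P60 (log2 change 0.34 ± 0.30, adjusted p = 0.375). Perineurial cells at P60 had 6.38 ± 2.90 CPM. Epineurial cells had 19.0, 16.1 and 20.5 CPM at P1 and 25.9, 28.4 and 31.7 at P60, and rose by 0.59 ± 0.14 (adjusted p = 0.00628). Endothelial cells had 16.5, 17.5 and 15.7 CPM at P1 and 32.1, 31.4 and 43.2 at P60, and rose by 1.14 ± 0.19 (adjusted p = 0.000517). The endothelial clusters at P60 differed in it. A cluster of 221 cells led by Lrg1, Selp and Ackr1 had 171 ± 44.3 CPM of Bmp4, against 10.6 ± 1.59 in the 985 cells led by Slco1a4, Ptn and Cldn5 and 23.5 ± 12 in the 333 cells led by Rbp7, Rgcc and Fabp4. The smallest cluster, 93 cells led by Cytl1 and Gkn3, held 126 ± 156 CPM, from 0 to 301 over the libraries. Tgfb2 had another order in these clusters, with 109 ± 12.7 CPM in the Slco1a4-led cells, 11.5 ± 5.14 in the Rbp7-led cells and 5.68 ± 5.81 in the Lrg1-led cells, and the Cytl1-led cells had 106 ± 50.4. Mural and immune cells held 2 to 13 UMIs of Bmp4 over 3 libraries at either age and were below the count minimum of the test.

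Bmp7 was the endoneurial ligand. Endoneurial cells had 31.7, 37.1 and 36.0 CPM at P1 and 112, 101 and 81.6 at P60, above every library of every other class at each age. It rose there by 1.58 ± 0.15 on the log2 scale (adjusted p = 1.98e-06). In epineurial cells it was 18 ± 2.60 CPM at P1 and 13.1 ± 0.521 at P60 and fell by 0.48 on the log2 scale (SE 0.16, adjusted p = 0.0289). The epineurial call was lost without P1 replicates 1 or 3 or P60 replicates 1 or 2, 1 at a time, with log2 changes of -0.41 to -0.50 (adjusted p of 0.0578 to 0.114), and under DESeq2 (-0.49, adjusted p = 0.103). Endothelial, mural and immune cells held 4 to 21 UMIs of Bmp7 over 3 libraries at either age.

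Gdf10, a TGF-beta superfamily ligand also called BMP3B, was nearly limited to epineurial cells at P1, with 28.3, 27.0 and 33.9 CPM there and means of 0.208 to 4.07 CPM in the other 5 classes. Epineurial Gdf10 rose to 158, 144 and 134 CPM at P60, by 2.26 ± 0.13 on the log2 scale (adjusted p = 5.85e-07), with no overlap between ages. At P60 the level came from 1 of the 2 epineurial clusters. The 2567 cells led by Cxcl14, Cilp and Mfap4 had 272 ± 12.9 CPM, and the 1966 cells led by Krtdap, Pla1a and Sbsn had 11.8 ± 3.70. Gdf10 was itself among the 10 leading genes of the first of these clusters, although it took no part in the clustering. Immune Gdf10 rose from 6 UMIs to 37 (log2 change 3.02 ± 0.65, adjusted p = 0.00346), but was below the count minimum, and so had no call, once immune cells holding at least 10 UMIs of Dcn, a fibroblast proteoglycan, were dropped, or once likely doublets were.

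The 2 epineurial clusters at P60 also differed in other members. Bmp7 had the opposite order, with 0.961 ± 0.301 CPM in the Cxcl14-led cells and 26.4 ± 4.39 in the Krtdap-led cells. Tgfbi was 514 ± 71.5 and 65.2 ± 5.40 CPM, Tgfb3 70.1 ± 18.6 and 29.9 ± 5.98, and Tgfbr2 119.8 ± 12.7 and 253 ± 9.08 in the same order. Tgfb2 was 52.3 ± 6.85 and 93.6 ± 18.5 CPM, Bmp4 37.8 ± 8.83 and 19.8 ± 1.20, and Tgfbr1 29.7 ± 1.60 and 18.7 ± 0.293. The Crabp2-led P1 fibroblasts combined Tgfb2 at 73.5 ± 4.62 and Tgfb3 at 104 ± 0.649 CPM, near the P1 epineurial levels, with Tgfbi at 672 ± 30.3, and held Bmp4 at 1.17 ± 0.456 and Gdf10 at 0.601 ± 0.575 CPM. The Sfrp5-led perineurial cluster at P60 (1955 cells) had Tgfb3 at 131 ± 27.2 and Tgfb2 at 5.16 ± 1.20 CPM.

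**Figure D2:**
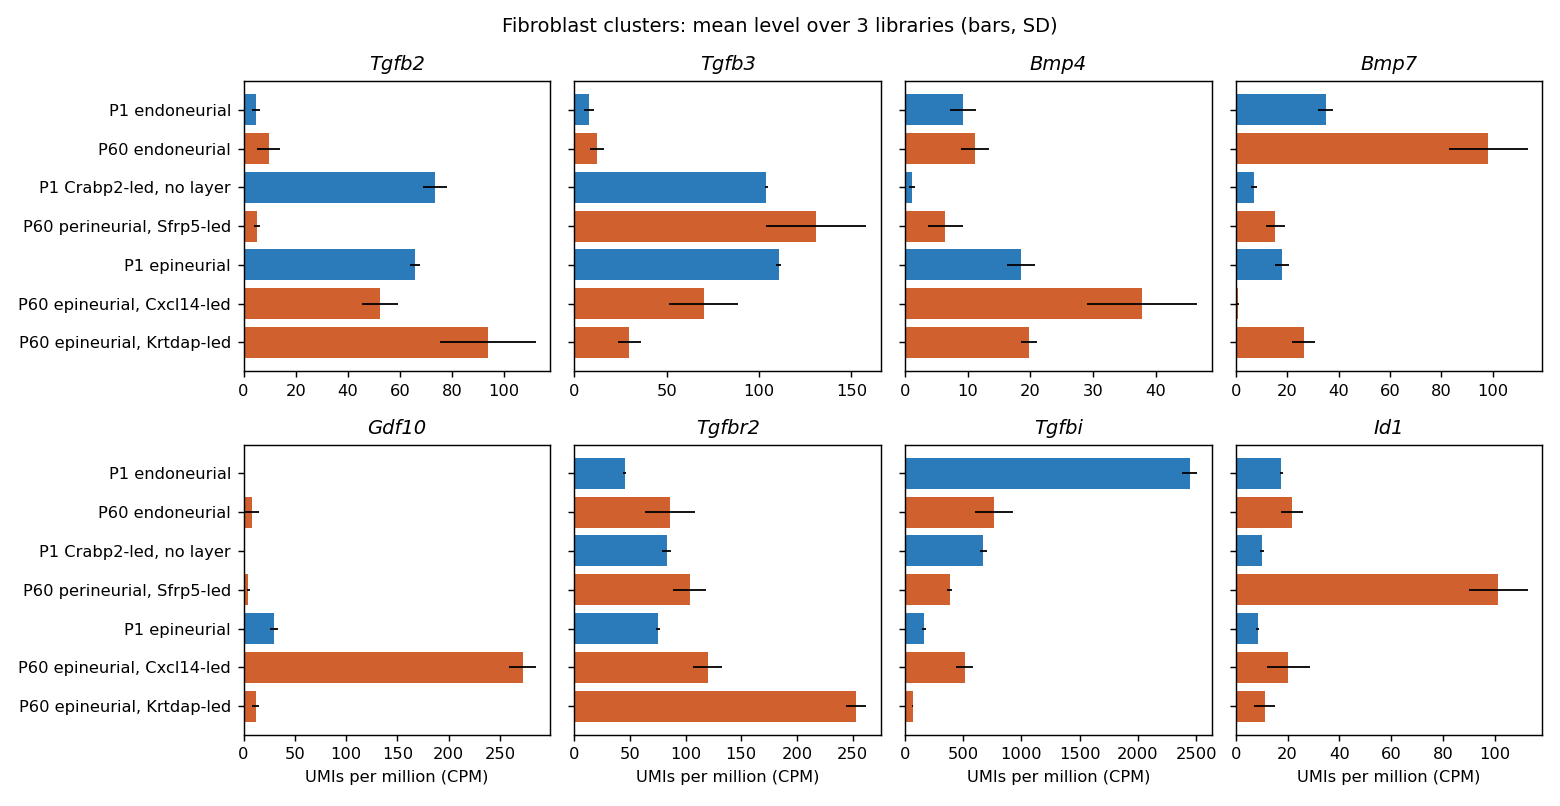
Mean level (CPM, horizontal axes starting at 0) of 8 of the genes in 7 fibroblast clusters, blue for P1 and orange for P60, with bars of 1 SD over 3 libraries. Gdf10 reached 272 CPM in the Cxcl14-led epineurial cells and 11.8 in the Krtdap-led ones, Bmp7 98.2 in P60 endoneurial cells, and Tgfbi 2445 in P1 endoneurial cells.

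Of the receptors, Tgfbr2, the type II receptor that binds the ligand, was found in all classes and rose in most of them. It was highest in endothelial cells at P1, with 138, 120.2 and 123 CPM, and in epineurial cells at P60, with 179, 176 and 196. Epineurial cells had started from 73.0, 76.8 and 75.8 CPM and rose by 1.26 ± 0.10 (adjusted p = 4.9e-06). Endoneurial cells rose by 1.00 ± 0.17 (adjusted p = 0.000236), mural cells by 1.17 ± 0.25 (adjusted p = 0.00499) and immune cells by 0.96 ± 0.18 (adjusted p = 0.00159), with no overlap between ages in any of the 3 classes. The endothelial change was 0.23 ± 0.12 (adjusted p = 0.145), at 138, 139 and 157 CPM in the P60 libraries. Within immune cells at P60 the Pf4-led and C1q-led cluster (938 cells) had 134 ± 31.7 CPM and the Lyz1-led cluster (450 cells) 27.5 ± 9.15.

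Tgfbr1, the type I receptor that signals to SMAD2 and SMAD3, was even across classes at P60, where means lay between 17.5 and 28.9 CPM and every range overlapped that of its neighbour in the order. At P1 immune cells stood out with 68.1, 84.8 and 66.9 CPM, above the endothelial libraries at 38.5, 35.5 and 32.8. Immune Tgfbr1 fell to 20.7, 26.7 and 27.2 CPM at P60, by 1.49 on the log2 scale (SE 0.17, adjusted p = 5.98e-05), and no change passed in the other 5 classes. At P1 the 889 immune cells led by Cd74 and Ccl4 had 89.2 ± 16.2 CPM and the 160 cells led by Lyve1 and Folr2 had 11.6 ± 2.93, and the first of these made up most of the class. The P60 clusters had 32.4 ± 5.26 (Pf4-led) and 14.4 ± 6.11 CPM (Lyz1-led).

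The target Tgfbi, a secreted matrix protein named for its induction by TGF-beta, was highest in endoneurial cells at both ages. There it had 2459.7, 2499.8 and 2374 CPM at P1 and 880.3, 829 and 577 at P60, and fell by 1.59 on the log2 scale (SE 0.16, adjusted p = 2.14e-06). It was among the 10 leading genes of the P1 endoneurial cluster, which had been made without it. Tgfbi also fell in endothelial cells (-1.08 ± 0.18, adjusted p = 0.00044), from 50.9 ± 6.82 to 23.6 ± 4.42 CPM, in a class that at P60 leaves out a lymphatic cluster of 182 cells with 247 ± 27.9 CPM, while no lymphatic cluster was split off at P1. Lymphatic markers in the class summed to 49.8 to 107 CPM at P1 and 32.9 to 49.0 at P60, and their part was not tested. It fell too in mural cells (-1.88 ± 0.39, adjusted p = 0.00369), from 78.0 ± 41.0 to 20.8 ± 8.30. It rose in epineurial cells by 0.82 ± 0.16 (adjusted p = 0.00201), from 181, 148 and 168 CPM to 369, 287 and 241. Of the P60 epineurial clusters, the Cxcl14-led one lay above every P1 library and the Krtdap-led one, at 65.2 ± 5.40 CPM, below every P1 library. It rose in immune cells by 0.71 ± 0.11 (adjusted p = 0.000522), from 335, 329 and 317 CPM to 508, 494 and 534. At P60 the Pf4-led immune cluster had 653 ± 22.2 CPM and the Lyz1-led cluster 290.4 ± 43.0, against 319 ± 17.2 and 353 ± 43.8 in the P1 clusters. The levels in endothelial and mural cells at P1 stood beside the high endoneurial level, and the summed level of 6 fibroblast markers in these classes fell with age from 6.38% to 4.04% (endothelial) and from 9.43% to 6.87% (mural) of the fibroblast level of the same libraries. Its part in these falls was not tested.

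Id1, a target of the BMP branch that blocks basic helix-loop-helix factors, was an endothelial gene. Endothelial cells had 371, 401 and 415 CPM at P1 and 811, 853 and 658 at P60, a rise of 1.01 ± 0.12 (adjusted p = 4.97e-05). Mural cells came second with 66.1, 62.7 and 59.3 CPM at P1 and 151, 119 and 146 at P60, a rise of 1.26 ± 0.17 (adjusted p = 0.000322). Perineurial cells at P60 followed with 101, 108 and 85.4 CPM, while endoneurial and epineurial cells had 21.7 ± 4.34 and 16.2 ± 6.05. Smooth muscle at P60 had 196 ± 19.7 CPM and pericytes 39.6 ± 13.6, a mean below every P1 mural library. The P1 mural cluster held both kinds. Smooth muscle markers in the mural class summed to 8360 to 9872 CPM at P1 and 18219 to 25663 at P60. The part of the mix of kinds in the mural rise was not tested. Immune Id1 rose from 5.16, 4.80 and 4.81 CPM to 13.6, 23.1 and 6.92 (log2 change 1.60 ± 0.42, adjusted p = 0.0100) and epineurial Id1 by 0.92 ± 0.28 (adjusted p = 0.0226). The epineurial call was lost without any 1 of the P1 libraries or of P60 replicates 1 and 2 (log2 changes of 0.70 to 0.96, adjusted p of 0.0579 to 0.0755), and the immune call without P60 replicate 2 (1.06, adjusted p = 0.0537).

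**Figure D3:**
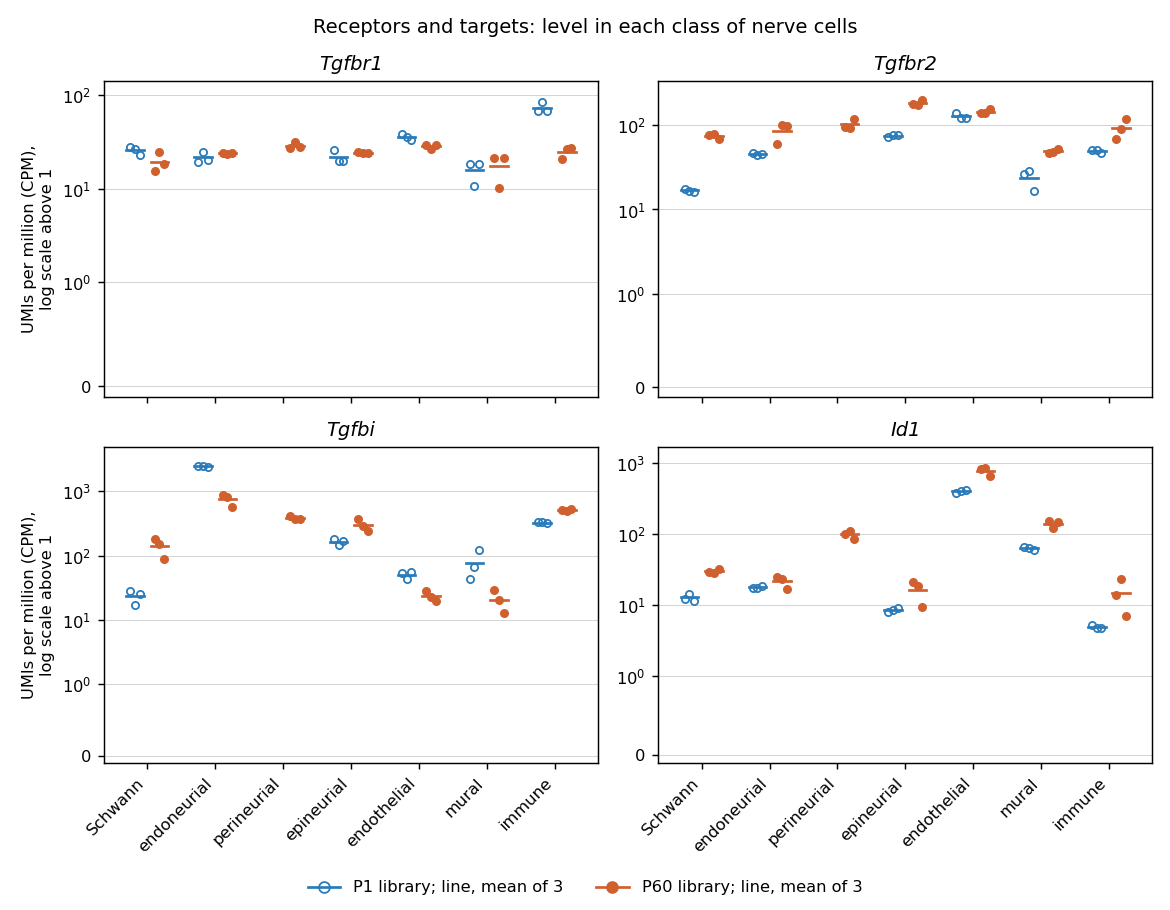
Level of the receptors Tgfbr1 and Tgfbr2 and the targets Tgfbi and Id1 (CPM, log scale above 1) in 7 classes, 1 point per library, open for P1 and filled for P60, with a line at the mean of 3 libraries. Tgfbr1 in immune cells fell from 73.3 to 24.9 CPM, Tgfbr2 in epineurial cells rose from 75.2 to 184, and Id1 was highest in endothelial cells at both ages.

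Schwann cells, the myelin-forming and ensheathing glia, had the lowest P1 mean of Tgfb2 and Tgfbr2 among the 6 classes, and most of the 10 genes were higher there at P60. Tgfbr2 went from 17.4, 16.8 and 16.2 CPM to 75.4, 79.3 and 68.7, a log2 change of 2.07 ± 0.17 (adjusted p = 4.97e-07). Bmp7 went from 2.82, 1.5 and 1.70 CPM to 31.2, 12.2 and 18.6 (3.23 ± 0.45, adjusted p = 5.93e-05), Tgfb1 from 7.46, 8.69 and 10.5 to 33.8, 24.4 and 22.3 (1.47 ± 0.30, adjusted p = 0.00119), and Id1 from 12.3, 14.4 and 11.5 to 28.6, 28.5 and 31.6 (1.14 ± 0.25, adjusted p = 0.00213). In these 4 genes the ages did not overlap. Of the 9 members tested in Schwann cells, 8 rose and none fell, where 48.2% of 11467 genes were called in either direction 25.7% were called higher and 22.6% lower. The P60 Schwann sums are small, 384474 to 538821 UMIs per library, so that 37 UMIs stand behind Tgfb1 and 28 behind Bmp7.

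The 8 calls in Schwann cells did not all hold when cells rich in fibroblast RNA were left out. The summed level of the 6 fibroblast markers in Schwann cells was 13.6 ± 0.829% of the fibroblast level at P1 and 30.6 ± 8.63% at P60. Endothelial markers summed to 48.9 to 56.4 CPM in the P1 Schwann libraries and 146 to 297 in those at P60, and immune markers to 21.6 to 38.2 and 114 to 655. Mural markers summed to 61.5 to 66.1 and 263 to 484, and no marker of these 4 lists was at 0. Without cells of 10 or more Dcn UMIs, the fibroblast share at P60 was 9.21 ± 2.14%. Then Tgfbr2 (log2 change 1.61, adjusted p = 7.5e-05), Bmp7 (3.38, adjusted p = 0.000337), Tgfb1 (1.71, adjusted p = 0.00199) and Id1 (1.24, adjusted p = 0.0054) were still called higher. The Dcn limit is set on a fibroblast gene, and the part of endothelial, immune or mural RNA in these calls was not tested. Tgfb2 (1.83, adjusted p = 0.0304) and Tgfbi (1.15, adjusted p = 0.00331) were called higher with smaller changes than the 2.81 ± 0.46 and 2.45 ± 0.25 of all cells. With clustering on a total of 100000 per cell, Tgfbi lost its call (0.35, adjusted p = 0.424). Tgfb3 lost its call without the Dcn-rich cells (-0.60, adjusted p = 0.548, against 1.37 ± 0.48 and adjusted p = 0.0305), and Gdf10, which had gone from 4 UMIs to 37 (6.70 ± 0.49, adjusted p = 1.52e-07), held 0, 1 and 5 UMIs in the P60 libraries and was below the count minimum. The Tgfb3 call was also lost with another clustering seed (0.19, adjusted p = 0.8), under DESeq2 (1.33, adjusted p = 0.115) and on leaving out any P1 library or either of replicates 1 and 2 of P60 (log2 changes of 0.44 to 1.48). Tgfb2 was below the count minimum without any 1 of the P1 libraries. Tgfbr1, at -0.45 ± 0.26 (adjusted p = 0.179) in all cells, was called lower without the Dcn-rich cells (-1.13, adjusted p = 0.0311). That call rested on 1, 5 and 6 UMIs in the P60 libraries.

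**Figure D4:**
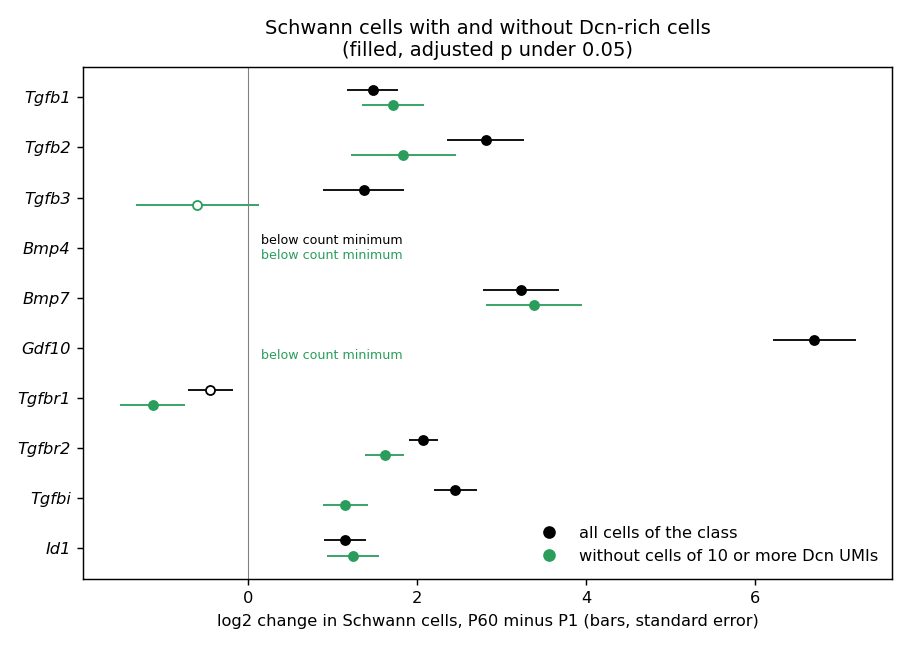
Log2 change between P1 and P60 in Schwann cells (horizontal axis, bars of 1 standard error) for each gene, black for all Schwann cells and green without cells of 10 or more Dcn UMIs, filled where the adjusted p was under 0.05. The changes of Tgfb1, Bmp7, Tgfbr2 and Id1 stayed between 1.14 and 3.38, while that of Tgfb3 went from 1.37 to -0.60 and Gdf10 fell below the count minimum.

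Counted by class, endoneurial cells had 4 members called higher and 1 lower of 9 tested, against 46.2% of all genes called, 23.8% higher and 22.5% lower. Epineurial cells had 6 higher and 2 lower of 10, against 47.3% (24.5% higher and 22.9% lower), with 5 calls in all without P1 replicate 1, and endothelial cells 3 higher and 1 lower of 8, against 40.5% (21% higher and 19.5% lower). Mural cells had 3 higher and 1 lower of 7, against 33.1% (17.7% higher and 15.4% lower), and immune cells 4 higher and 1 lower of 8, against 37.5% (20.3% higher and 17.2% lower). The median log2 change over the tested members was 2.07 in Schwann, 0.88 in immune, 0.73 in endoneurial, 0.71 in epineurial, 0.31 in mural and -0.03 in endothelial cells, where the median over all genes tested lay between 0.01 and 0.03. A gene was tested where the libraries of either age alone reached the count minimum. In Schwann cells Gdf10, Bmp7 and Tgfb2, the members of largest change, had P1 means of 0.208, 2.01 and 2.21 CPM. Immune Gdf10 had 0.75 CPM at P1. Such members were tested through their P60 level, which lifts these medians. With all fibroblasts summed, 4 members were higher and 1 lower of 10, against 59.8% of genes (31.0% higher and 28.8% lower). That sum mixes layers in other proportions at each age, and without P60 replicate 3 it had 8 calls, with Tgfb1, Tgfb2 and Tgfb3 added. Where so large a share of all genes differed, these counts and medians are no result about the members. Over the 6 classes other than summed fibroblasts, Id1 and Tgfbr2 were called higher in 5 and lower in none, Tgfbi higher in 3 and lower in 3, and Tgfbr1 lower in 1.

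**Figure D5:**
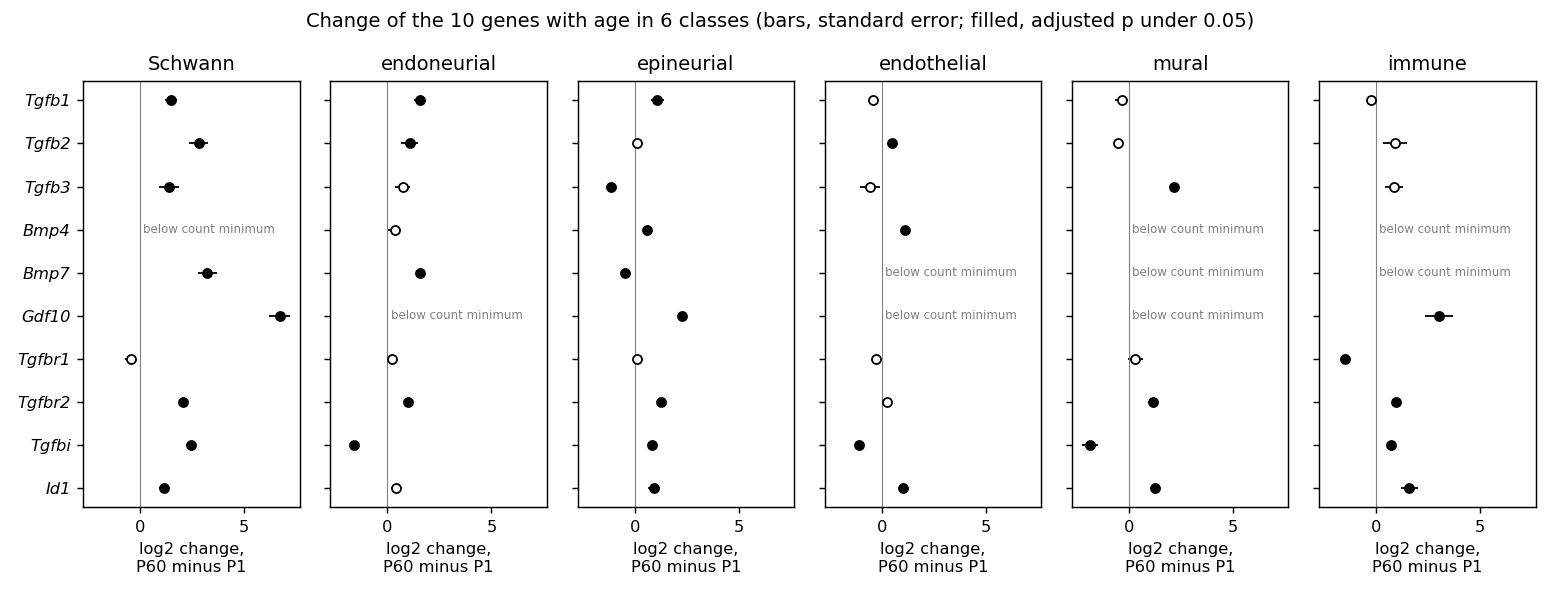
Log2 change from P1 to P60 (horizontal axes, positive for higher at P60, bars of 1 standard error) of the 10 genes in 6 classes, filled where the adjusted p was under 0.05 and marked in words where a gene was below the count minimum. Tgfbi lay on opposite sides of 0 in endoneurial (-1.59) and epineurial (0.82) cells, and Tgfb3 in epineurial (-1.13) and mural (2.18) cells.

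Whether an age change differed between cells was tested directly. Between the fibroblast layers, 6 members differed in their change, against 31.7% of 12770 genes. The epineurial change exceeded the endoneurial one by 2.50 ± 0.08 on the log2 scale for Tgfbi (adjusted p = 8.93e-34) and by 0.34 ± 0.14 for Tgfbr2 (adjusted p = 0.0460), and was below it by -2.0 ± 0.18 for Bmp7 (adjusted p = 3.11e-14) and -1.78 ± 0.32 for Tgfb3 (adjusted p = 6.03e-06). Tgfb2 (-0.90 ± 0.35, adjusted p = 0.0405) and Gdf10 (-1.98 ± 0.67, adjusted p = 0.0182) also passed, Gdf10 on 5 endoneurial UMIs at P1. The Tgfbr2 call was lost without any 1 library except P60 replicate 2 (0.09 to 0.35), that of Tgfb2 on leaving out replicate 2 of P1 or either of replicates 1 and 2 of P60 (-0.63 to -0.98) and that of Gdf10 without P1 replicate 3 (-1.28) or P60 replicate 2 (-1.09). Against summed fibroblasts, mural cells differed in 2 members, Tgfb3 (2.09 ± 0.31, adjusted p = 3.44e-06) and Tgfb1 (-0.77 ± 0.25, adjusted p = 0.0225), where 20.6% of genes differed. The mural Tgfb1 call was lost without P1 replicates 1 or 2 or P60 replicates 1 or 3, 1 at a time (-0.67 to -0.80). Immune cells differed in 4, among them Tgfbr1 (-1.51 ± 0.17, adjusted p = 8.91e-09) and Tgfbi (2.42 ± 0.17, adjusted p = 2.58e-13), against 30.4% of genes. Endothelial cells differed in 3, Tgfb1 (-0.85 ± 0.16), Tgfbr2 (-0.88 ± 0.12) and Id1 (-0.73 ± 0.15), against 30.6%, and in 5 without P60 replicate 2 or without P60 replicate 3. Id1 in summed fibroblasts, which hold named perineurial cells at P60 alone, rose by 1.79 ± 0.15. Schwann cells differed in 7, against 33.1%, with the Tgfb1 call lost without P60 replicate 1 (0.98) or P60 replicate 3 (0.88), and in 4 of the 10 (Tgfb1, Tgfbr1, Tgfbi and Bmp7) without cells of 10 or more Dcn UMIs.

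Shares of cells led by the same class as the sums for Tgfb1, Gdf10, Tgfbi and Id1, the genes given here, while the closely placed classes of Tgfb2 and Tgfbr1 at P60 and of Bmp4 at P1 had another order. After each cell was thinned to 1500 UMIs, 26.3% ± 1.17 of P1 and 21.6% ± 3.49 of P60 immune cells held a Tgfb1 UMI, and 73.1% and 46.8% before thinning, at median depths of 6813 and 3727.5 UMIs. Of P1 Schwann cells, 1.60% held one at a median of 6056 UMIs. Gdf10 was found in 15.7% of thinned P60 epineurial cells and 3.67% of those at P1, against 0.737% of P60 perineurial cells, with median depths of 5199, 6181 and 6429.5 UMIs. Tgfbi was found in 96.3% of thinned P1 endoneurial cells and 59.1% of those at P60, and in 3.41% of P1 Schwann cells. Endothelial cells with an Id1 UMI made up 36.1% of the class at P1 and 55.2% at P60, where P1 immune cells had 0.758%.

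Of the 64 other pathway genes, 29 were called higher and 3 lower of 43 tested in Schwann cells, where 48.2% of all genes were called. In endoneurial cells they were 22 and 7 of 43 (46.2% of all genes), in epineurial cells 26 and 16 of 55 (47.3%) and in endothelial cells 17 and 11 of 45 (40.5%). In mural cells they were 20 and 2 of 42 (33.1%) and in immune cells 12 and 6 of 39 (37.5%), and the immune count is near the share over all genes. The Schwann calls numbered 18 without cells of 10 or more Dcn UMIs, where 2293 of 11300 genes were called higher and 2108 lower. The mural calls numbered 13 without P1 replicate 3, where 1083 of 8702 genes were called higher and 925 lower. Neither reduced count is read as an excess over all genes. Of the 11 receptors other than the members, 7 of 9 tested rose in Schwann cells, 4 of 7 in endoneurial and 4 of 9 in epineurial cells. In endothelial cells 4 of 8 rose, in mural cells 2 of 7 and in immune cells 2 of 7. Of all genes tested, 17.7% (mural) to 25.7% (Schwann) were called higher over these 6 classes. None of these receptors was called lower when all cells of a class were used. Without Dcn-rich Schwann cells, 4 of the 7 that rose there were still called, and Acvr1, Bmpr1a and Bmpr2 were not. Those still called were Tgfbr3, Eng (4.46), Acvrl1 (4.61) and Acvr2b (2.34). The activin receptor Acvr2a was then called lower in Schwann cells (-1.89, adjusted p = 0.00639). Endothelial markers in all Schwann cells summed to 48.9 to 56.4 CPM at P1 and 146 to 297 at P60. Their part in these rises was not tested. Tgfbr3, the betaglycan co-receptor, rose in all 6 classes, and in Schwann cells also without Dcn-rich cells (0.95, adjusted p = 0.000783). Among latency genes, Ltbp3, a latent TGF-beta binding protein, rose in all 6 classes too, but in Schwann cells the call was lost without Dcn-rich cells (0.83, adjusted p = 0.161). Ltbp1, another of these binding proteins, rose in mural cells by 3.48 ± 0.48 (adjusted p = 0.000332), from 8.96 ± 4.90 to 90.0 ± 48.1 CPM.

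The other ligands also changed. Bmp2 rose in epineurial cells by 3.80 ± 0.23 (adjusted p = 6.15e-07), from 1.61 ± 0.536 to 23.4 ± 2.11 CPM, and in endoneurial cells by 4.57 ± 0.50 (adjusted p = 5.89e-06), from 5 UMIs to 30. Bmp5 rose in endoneurial cells by 4.25 ± 0.35 (adjusted p = 4.16e-07), from 6.90 ± 1.55 to 126 ± 80.3 CPM. Inhbb, an activin subunit, rose in epineurial cells by 3.64 ± 0.29 (adjusted p = 3.61e-06), and Gdf11, a myostatin relative, fell in endoneurial cells by 1.67 on the log2 scale (SE 0.29, adjusted p = 0.000378). Gdf15, a stress-induced ligand, fell in immune cells by 2.98 (SE 0.37, adjusted p = 9.3e-05). In Schwann cells Bmp6 rose from 4 UMIs to 20 (5.83 ± 0.67, adjusted p = 1.12e-05) and was below the count minimum without cells of 10 or more Dcn UMIs.

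Secreted inhibitors moved in both directions. Sostdc1, a BMP antagonist, fell in epineurial cells by 3.85 (SE 0.29, adjusted p = 2.85e-06) and in endoneurial cells by 2.71 (SE 0.27, adjusted p = 2.04e-06). It was also among the leading genes of Schwann clusters, at 942 ± 25.3 CPM in P1 and 1034 ± 80.1 in P60 Schwann cells, and the summed Schwann markers fell with age in epineurial libraries, from a range of 642 to 758 CPM to one of 103 to 111, and their part in that fall was not tested. Nbl1, a DAN family antagonist, rose in endothelial cells by 2.42 ± 0.21 (adjusted p = 2.55e-06) and in immune cells by 3.17 ± 0.46 (adjusted p = 0.000238), and Fstl3, which binds activins, rose in endothelial cells by 3.00 ± 0.30 (adjusted p = 8.5e-06). In immune cells the 8 epineurial markers, none at 0, summed to 62.6 to 230.0 CPM at P1 and 609 to 1142 at P60. Their endothelial sum is no measure of epineurial RNA, since the list holds Cd34, which the study also found in endothelial clusters. The 6 fibroblast markers stood at 6.38% of the fibroblast level at P1 and 4.04% at P60 in endothelial cells. In immune cells they stood at 7.14% and 6.95%. The part of such RNA in the rises of Nbl1 and Fstl3 was not tested. Chrdl1, a chordin-like BMP antagonist, rose in Schwann cells by 5.36 ± 0.25 (adjusted p = 2.32e-09) and without cells of 10 or more Dcn UMIs by 4.71 (adjusted p = 3.69e-08), and in immune cells by 2.37 ± 0.37 (adjusted p = 0.000375). The part of epineurial RNA in these rises of Chrdl1 was not tested either. Fstl1, a follistatin-like secreted protein, fell in endothelial cells by 2.04 (SE 0.11, adjusted p = 6.7e-08) and in mural cells by 0.96 (SE 0.12, adjusted p = 0.000201). The 6 fibroblast markers also fell with age in both classes, in mural cells from 9.43% to 6.87% of the fibroblast level. Their part in the falls of Fstl1 was not tested.

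Of the target genes, Id3 rose in all classes but immune cells, while its relative Id2 fell in Schwann cells by 2.77 on the log2 scale (SE 0.18, adjusted p = 3.99e-08), from 1000.2 ± 23.7 to 155 ± 38.4 CPM, and Id4 fell in epineurial cells by 3.51 (SE 0.13, adjusted p = 2.85e-08). Ctgf, a matricellular protein induced by TGF-beta, rose in mural cells by 4.18 ± 1.10 (adjusted p = 0.0139), with an SD of 102 CPM around a P60 mean of 73.0. Bambi, a membrane decoy receptor, fell in Schwann cells by 1.59 (SE 0.37, adjusted p = 0.00273). Itgb8, an integrin that frees latent TGF-beta, fell in endothelial cells by 2.30 (SE 0.45, adjusted p = 0.00149) and in immune cells by 1.85 (SE 0.51, adjusted p = 0.0144). Summed Schwann markers fell in endothelial libraries from a range of 575 to 893 CPM at P1 to one of 84.9 to 136 at P60. In immune libraries the ranges were 471 to 601 and 122 to 188 CPM. They fell in epineurial libraries too, as given for Sostdc1, and their part in the falls of Itgb8 and Id4 was not tested. Bmp1, a metalloprotease that cleaves latency and inhibitor proteins, fell in mural cells by 1.41 (SE 0.19, adjusted p = 0.000242).

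Over 13 profiles, the mean levels of each class at each age, the genes whose levels ran most like those of a member were found by Pearson's r of log2(CPM + 1). For Tgfb1 they were Lyn, Smagp and Ptbp3 (r of 0.97 to 0.95), for Tgfb2 Ebf3, Eln and Ankrd29 (0.98 to 0.91) and for Tgfb3 Gpr27, Bace1 and Dzip1l (0.93 to 0.88). Bmp4 ran most like Mcc, Cd34 and Aida (0.92 to 0.91), Bmp7 like Clic6, Pdpn and Eif2ak3 (0.93 to 0.92) and Gdf10 like Stmn4, Lrrn4cl and Cilp (0.96 to 0.95). Tgfbr1 ran most like Glmp, Mfsd1 and Mcpt4 (0.89 to 0.85), Tgfbr2 like Stat5b, Tmem127 and Reep3 (0.94 to 0.92), Tgfbi like Fuca1, Fam234a and Ccl7 (0.87 to 0.86) and Id1 like Gpr4, Cdc42bpb and Actn4 (0.96 to 0.95). These are descriptions, since the profiles share libraries and the highest of many genes was taken.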

How the data were processed

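Libraries were made by the authors with 10x Chromium 3′ v2 chemistry from DsRed-sorted suspensions of sciatic nerve cells, 3 libraries at P1 and 3 at P60. The deposited files hold raw UMI counts per gene and barcode, called and counted by the authors with Cell Ranger 2.0.2. The submitters' processing notes name GRCm38.p5, and the gene identifiers are mouse identifiers, while the study's methods name a human build. Replicates are libraries from separate suspensions, each of male and female mice in equal parts. The labels do not say which mice gave each, and p-values measure the spread between these libraries.

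Cells with 500 to 5000 genes were kept (3435 to 4586 of 3467 to 4609 barcodes per library, which is not the number the study's methods give) and clustered per age in Seurat 5.3.0 with 10 principal components at resolutions of 0.5 (P1) and 0.4 (P60), leaving the 10 members and 64 pathway genes out of the variable genes. Clusters were named from marker lists, with naming limits chosen once the clusters had been looked at, so class levels rest on rebuilt names. Mixed, unnamed and lymphatic clusters entered no class. Likely doublets (2.74% to 3.67% of cells per library) were left out in an alternative only. UMIs were summed per library and class, and P60 was compared with P1 by edgeR 4.0.16 (quasi-likelihood test, TMM, filterByExpr, R 4.3.3), with Benjamini-Hochberg adjustment over all genes of a class and calls at an adjusted p under 0.05. Differences between classes were tested as interactions in a fit with library and class. The SE of a log2 change or difference was its absolute size divided by the square root of the F statistic. It was not estimated apart from the test and is no measure of counting error in genes of few UMIs. The scripts were tested on simulated counts. Alternatives were DESeq2 1.42.0, other scalings and filters, a replicate block, leaving out each library, other clustering settings and other sets of cells. Sharing of replicate numbers was checked by the correlation of deviations from age means. Named genes were all members, the 2 called higher and 2 called lower pathway genes of largest change per class, and the 3 genes most like each member among those with at least 20 CPM in a profile. Other genes named as rising in all classes were chosen after their values were seen. Members and gene lists were chosen with earlier results of these data known. Shares of cells cover counting of UMIs only.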

Additional observations from a re-analysis of the deposited data

Results flagged for a closer look

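Age changes that differed between classes were picked out because the difference itself passed the interaction test of edgeR (adjusted p under 0.05). Against summed fibroblasts, the Schwann change was larger by 1.04 for Tgfb1, 2.76 for Tgfb2, 0.90 for Tgfbr2, 4.13 for Tgfbi, 4.27 for Bmp4, 3.28 for Bmp7 and 3.73 for Gdf10 on the log2 scale. The Bmp4 difference rested on 3 Schwann UMIs at P1 and 10 at P60, and Bmp4 was below the count minimum of the age test within Schwann cells. Without cells of 10 or more Dcn UMIs, an alternative chosen after seeing the data, Tgfb1 (1.26), Tgfbi (2.77) and Bmp7 (3.37) still passed. Tgfbr1 passed as well (-1.28, on 1, 5 and 6 Schwann UMIs in the P60 libraries), and Tgfb2 (1.74), Tgfbr2 (0.37), Bmp4 (2.87) and Gdf10 (1.94) did not.

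Endothelial changes were smaller than those of summed fibroblasts for Tgfb1 (-0.85), Tgfbr2 (-0.88) and Id1 (-0.73). Mural changes differed for Tgfb1 (-0.77) and Tgfb3 (2.09), and immune changes for Tgfb1 (-0.66), Tgfbr1 (-1.51), Tgfbi (2.42) and Bmp7 (2.90, from 4 and 21 immune UMIs). Between layers, epineurial minus endoneurial changes were -0.90 for Tgfb2, -1.78 for Tgfb3, 0.34 for Tgfbr2, 2.50 for Tgfbi, -2.0 for Bmp7 and -1.98 for Gdf10.

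Clusters that entered no class also held these genes above 3 UMIs, the limit a count of 0 allows. All 10 members did so in an unnamed P1 cluster of 439 cells, in a mixed P1 cluster of 321 cells and in the P60 lymphatic endothelial cluster of 182 cells, and 9 members did so in mixed clusters of 148 cells at P1 and of 51 and 237 cells at P60.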

How the results depend on the processing

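Of 662 member changes under alternatives that kept every library, 631 kept their direction and call, 15 lost a call, 8 gained one and 8 reversed, and of 900 levels 826 moved by less than 1 SD. With 50 cells per library and class, members called numbered 2 in Schwann, 2 in fibroblast, 3 in endoneurial, 4 in epineurial, 1 in endothelial cells, with mural cells at 2 and immune cells at 1, and pathway genes 11, 14, 10, 13, 8, 6 and 2 in that order, on fewer cells. Pathway calls in Schwann cells numbered 18 with a clustering total of 100000 and 18 without Dcn-rich cells, and in mural cells 14 under DESeq2. Over all genes, these settings gave 2185 higher and 2084 lower of 11352, 2293 and 2108 of 11300, and 1140 and 946 of 12712. Without Dcn-rich cells, members whose age change differed from fibroblasts numbered 4 in Schwann and 6 in endothelial cells. Leaving out 1 library at a time gave members called of 6 to 8 in Schwann, 5 to 8 in fibroblast, 4 to 7 in endoneurial, 5 to 9 in epineurial, 3 to 4 in endothelial, 4 to 6 in mural and 4 to 5 in immune cells. Pathway genes called then ranged from 24 to 30, 39 to 47, 22 to 27, 34 to 44, 21 to 28, 13 to 24 and 14 to 17 in the same order. Members differing in age change ranged from 6 to 8 in Schwann, 3 to 5 in endothelial, 1 to 3 in mural, 4 to 4 in immune cells and 4 to 5 between layers.

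Reversed log2 changes, of which only Tgfb3 in Schwann cells and Tgfbi in endothelial cells were called in the main test, were these. With 50 cells, they were -0.70 for Tgfb2 in fibroblast, -0.09 for Tgfbr1 in endoneurial, -0.02 for Tgfb2 in epineurial, 0.06 for Tgfbi in endothelial and 0.13 for Tgfb1 in immune cells. Tgfb3 in Schwann cells was -0.94 with a clustering total of 100000 and -0.60 without Dcn-rich cells, and Tgfbr1 in mural cells was -0.18 without cells over 10% mitochondrial. Leaving out 1 library gave changes of both signs in fibroblasts for Tgfb2 (-0.07 to 0.21), Tgfbr1 (-0.01 to 0.11) and Bmp7 (-0.14 to 0.05) and in mural cells for Tgfb1 (-0.68 to 0.02). Differences from fibroblasts reversed without Dcn-rich cells for Tgfb3 in Schwann (-0.85) and Tgfbr2 (-0.11) and Bmp4 (-0.32) in mural cells. Leaving out 1 library gave differences of both signs in mural cells for Tgfbr1 (-0.05 to 0.56), Tgfbr2 (-0.18 to 0.24), Tgfbi (-0.49 to 0.28) and Bmp7 (-1.97 to 0.76). In immune cells it did so for Tgfbr2 (-0.30 to 0.01), Gdf10 (-0.48 to 1.86) and Id1 (-0.55 to 0.11), and between layers for Tgfbr1 (-0.26 to 0.12). The cause was not tested.

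The labels do not say that a replicate number pairs libraries. Deviations of same-numbered libraries correlated at -0.08 to 0.09 and of others at -0.08 to 0.06, and 13 of 21 P1 profiles were closest to their own number. With the replicate block, members called numbered 8, 5, 5, 8, 5, 4 and 5 and pathway genes 30, 46, 29, 44, 27, 23 and 19 in Schwann, fibroblast, endoneurial, epineurial, endothelial, mural and immune cells. The added endothelial call was Tgfb1 (-0.45, adjusted p = 0.0491). Of 150 shares of cells, 146 moved without thinning.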
